A study of Homo sapiens with 6 samples.

Results

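Expression of 10 neuropeptide genes was examined in Kelly cells, an established human neuroblastoma line labelled as MYCN-amplified and wild type. The genes were CRH, CRHBP, NPY, VIP, GAL, SST, TAC1, ADCYAP1, PENK and CARTPT, taken by symbol from the 19923 genes counted in each library. CRH was chosen by its log2 fold change between these same libraries, and its values are therefore given as a description without a test. The others were listed for what they encode, with earlier results of these data known. Of the 10, 8 were expressed highly enough to be tested, and CRHBP and TAC1 were not.

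The cells had received a control siRNA (siControl, 3 libraries) or an siRNA against METTL3 (siMETTL3, 3 libraries) 72 hours before collection, and poly(A) RNA was sequenced. METTL3 is the enzyme that places N6-methyladenosine on mRNA, and the comparison asks how its depletion alters the neuroblastoma transcriptome. The sample columns of the siMETTL3 libraries all carry the name siMettl3B, and a second METTL3 siRNA was not analysed here. The labels do not say whether libraries of a group came from separate cultures, so p-values measure only the spread between these libraries, which may be technical.

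Neuropeptides are made as larger precursors, cut by prohormone convertases in dense-core granules and released to act on G protein-coupled receptors of nearby cells. Many of their genes respond to cAMP and calcium through CREB bound at a cAMP response element. Sympathetic neurons and chromaffin cells, the normal relatives of neuroblastoma, use several of these peptides as co-transmitters beside catecholamines.

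Total counts per library lay between 15430000 and 21565013. The shallowest library, siControl replicate 3, also lay farthest out on the first principal component, at -37.0 against -24.4 and -18.0 for the other siControl libraries and 25.6 to 27.4 for siMETTL3. METTL3 itself fell, with a log2 fold change of -0.71 (SE 0.070, edgeR FDR 4.68e-06), so the depletion as counted was partial at the RNA level. TOX4 overlaps 7.9% of the METTL3 span, and how far its reads add to the METTL3 count was not tested. The sympathetic markers DBH and TH, enzymes of catecholamine synthesis, were expressed in every library. DBH was at 936 to 1155 CPM (read counts scaled to the size of the library) in siControl and 1320.5 to 1411 CPM in siMETTL3, and TH at 165 to 210.5 CPM and 481 to 556 CPM. Marker lists of other cell types summed to far less than either gene. They reached at most 11.6 CPM in siControl and 14.7 CPM in siMETTL3, both for fibroblasts (COL1A1, DCN, LUM and PDGFRA). The fibroblast and endothelial sums were higher in every siMETTL3 library than in any siControl library, at 12.3 to 14.7 against 8.51 to 11.6 CPM and 6.95 to 9.25 against 4.98 to 5.91 CPM, and so were the Schwann sum (3.99 to 5.51 against 2.59 to 3.43 CPM) and the adrenal cortex sum (4.68 to 4.91 against 3.78 to 4.17 CPM). The immune sum was lower in every siMETTL3 library (1.41 to 2.09 against 2.1 to 3.06 CPM), and the epithelial sums overlapped (5.65 to 8.31 and 6.01 to 6.95 CPM). Of those other lists, only KRT5 had 0 counts in every library, and the part of such cells in the results was not tested. In bulk RNA a change in the number of expressing cells and a change in RNA per cell cannot be told apart.

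Across the comparison, CRH and CARTPT were far higher after METTL3 siRNA, GAL and SST were about 2-fold higher, NPY was lower, and VIP, ADCYAP1 and PENK did not pass the test. Among the 7 tested genes other than CRH, 3 rose and 1 fell with a false discovery rate (FDR) below 0.05 by the quasi-likelihood test of edgeR. For all 15311 tested genes the share past that threshold was 37.8%, with 18.6% higher and 19.2% lower. In the same 4 genes the groups did not overlap in CPM, as in 49.9% of all tested genes. Past the threshold and at least 2-fold higher were CARTPT and GAL, and 2.74% of all tested genes. The median log2 fold change of the 7 was 0.49, and that of all tested genes was -0.0021. Each FDR is Benjamini-Hochberg adjusted over all genes tested in its fit, 15311 with all libraries and the usual filter, and other numbers where a library is left out or the filter differs.

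**Figure D1:**
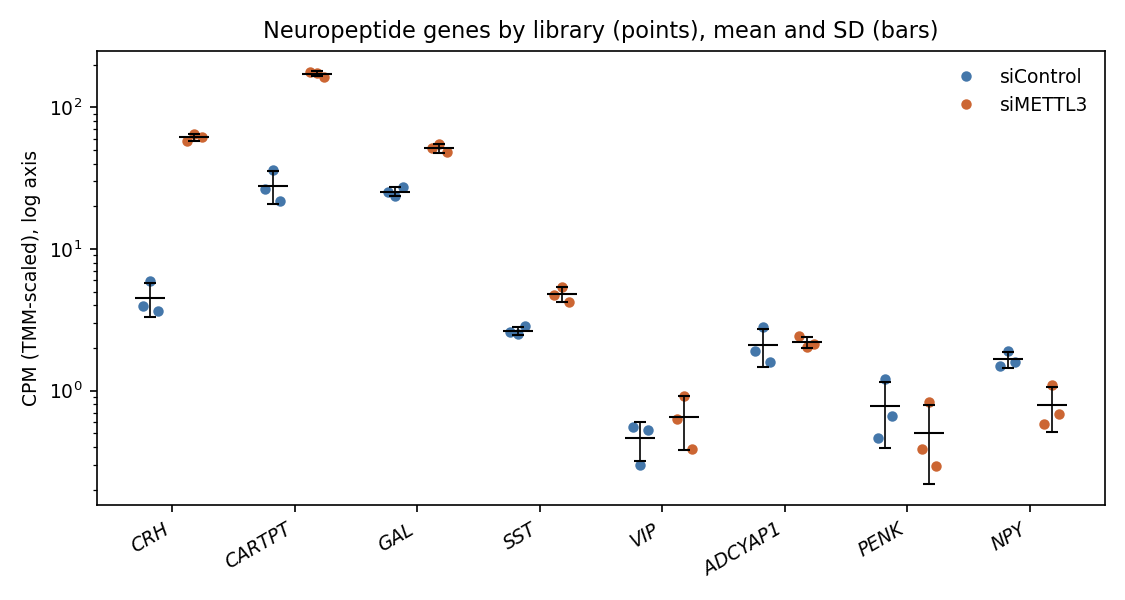
Expression of the 8 tested neuropeptide genes in CPM on a log axis, with 1 point per library, bars for the mean and SD over 3 libraries, and siControl and siMETTL3 side by side. CRH, CARTPT, GAL and SST are higher in all 3 siMETTL3 libraries than in any siControl library, NPY is lower in all 3, and VIP, ADCYAP1 and PENK overlap.

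CRH encodes corticotropin-releasing hormone, the hypothalamic peptide that starts the pituitary stress axis. The gene lies on chromosome 8 from 66176376 to 66178464 (GRCh38, minus strand) and its canonical transcript has 2 exons. The siControl libraries held 3.99, 5.91 and 3.65 CPM and the siMETTL3 libraries 57.9, 64.8 and 61.3 CPM. The lowest siMETTL3 library was thus far above the highest siControl library. The raw counts behind these values were 86, 118 and 55 against 1192, 1410 and 1258. The log2 fold change was 3.75 (SE 0.13), or 13.4-fold, the largest of all tested genes, and the value for which CRH was chosen. With each library left out in turn it lay between 3.64 and 3.99. It was 3.64 without siControl replicate 3, the library that stood apart.

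CARTPT encodes the precursor of cocaine- and amphetamine-regulated transcript peptides, which are found in appetite and reward circuits and in sympathetic neurons. It occupies 1774 bases of chromosome 5 (71719275 to 71721048, plus strand, 3 exons). Its siControl libraries held 26.4, 36.0 and 21.6 CPM and its siMETTL3 libraries 177, 175 and 164 CPM. The siMETTL3 libraries were close to each other, and the siControl libraries were more spread, with replicate 2 highest for CARTPT as for CRH. CARTPT rose 6.10-fold, a log2 fold change of 2.61 (SE 0.16, edgeR FDR 1.50e-05). That was the rank 16 rise among all tested genes. Leaving out each library in turn gave 2.47 (without siControl replicate 3) to 2.83.

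GAL encodes galanin, a peptide of sympathetic and sensory neurons that is well known in neuroblastoma. The gene spans 68683779 to 68691175 on chromosome 11 (plus strand, 6 exons). GAL was measured at 25.0, 23.8 and 27.5 CPM in siControl and at 51.4, 55.3 and 48.0 CPM in siMETTL3. The groups were well apart and both were tight. The log2 fold change was 1.02 (SE 0.083, edgeR FDR 9.30e-07), so expression rose 2.03-fold (log2 fold change 1.08 without siControl replicate 3).

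SST encodes somatostatin, an inhibitory peptide of neurons and endocrine cells. It is a short gene of 2 exons on chromosome 3 (187668912 to 187670394, minus strand). SST was at 2.60, 2.50 and 2.85 CPM in siControl and at 4.76, 5.42 and 4.24 CPM in siMETTL3. These are low levels, from 43 to 118 raw counts, and the groups did not overlap. SST rose 1.82-fold, a log2 fold change of 0.86 (SE 0.19, edgeR FDR 0.00283), and of 0.91 without siControl replicate 3.

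NPY encodes neuropeptide Y, a co-transmitter of noradrenaline in sympathetic nerves. It lies on chromosome 7 (24284188 to 24291862, plus strand, 4 exons). NPY was at 1.48, 1.90 and 1.59 CPM in siControl and at 0.583, 1.10 and 0.682 CPM in siMETTL3. The values rest on 12 to 38 raw counts per library, and the groups did not overlap. NPY fell by 1.06 on the log2 scale (SE 0.34, edgeR FDR 0.0243). The call did not survive leaving out siControl replicate 2 (edgeR FDR 0.0983), siMETTL3 replicate 1 (0.10) or siMETTL3 replicate 3 (0.0840). The alternatives gave FDR values between 0.0153 and 0.10, and 0.0246 without siControl replicate 3.

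ADCYAP1 encodes PACAP, the peptide that drives catecholamine release from chromaffin cells, and lies on chromosome 18 from 904871 to 912172. It was at 1.90, 2.80 and 1.59 CPM in siControl and at 2.43, 2.02 and 2.14 CPM in siMETTL3. All 3 siMETTL3 values lay inside the siControl range. The log2 fold change was 0.051, with a 95% interval of -0.52 to 0.62 (edgeR FDR 0.902), and its sign turned in 3 of the 6 fits that each left out 1 library.

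VIP, which encodes vasoactive intestinal peptide, and PENK, which encodes the enkephalin precursor, were near the limit of detection. VIP (chromosome 6, 152750797 to 152759765) had 12, 6 and 8 counts in siControl and 13, 20 and 8 in siMETTL3. Its log2 fold change was 0.49 with a 95% interval of -0.54 to 1.53 (edgeR FDR 0.455). PENK (chromosome 8, 56436674 to 56446671) had 10, 24 and 10 counts in siControl and 8, 18 and 6 in siMETTL3. Its log2 fold change was -0.61 with an interval of -1.71 to 0.49 (edgeR FDR 0.378). The groups overlapped for both genes, and the intervals include changes of 2-fold. Antisense RNAs are annotated over VIP, ADCYAP1 and PENK, and counting without strand cannot separate their reads.

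CRHBP encodes the secreted protein that binds CRH and limits its action. It had 2, 0 and 2 counts in siControl and 4, 0 and 0 in siMETTL3, so a binding protein transcript was barely detected beside the higher CRH. TAC1, the precursor of substance P and neurokinin A, had 0 counts in all 6 libraries. A count of 0 allows up to 3 counts, which is between 0.138 and 0.199 CPM depending on the library and covers counting error only. Both reads of a pair were probably counted, and 3 read pairs would be 6 counts, or 0.276 to 0.398 CPM.

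**Figure D2:**
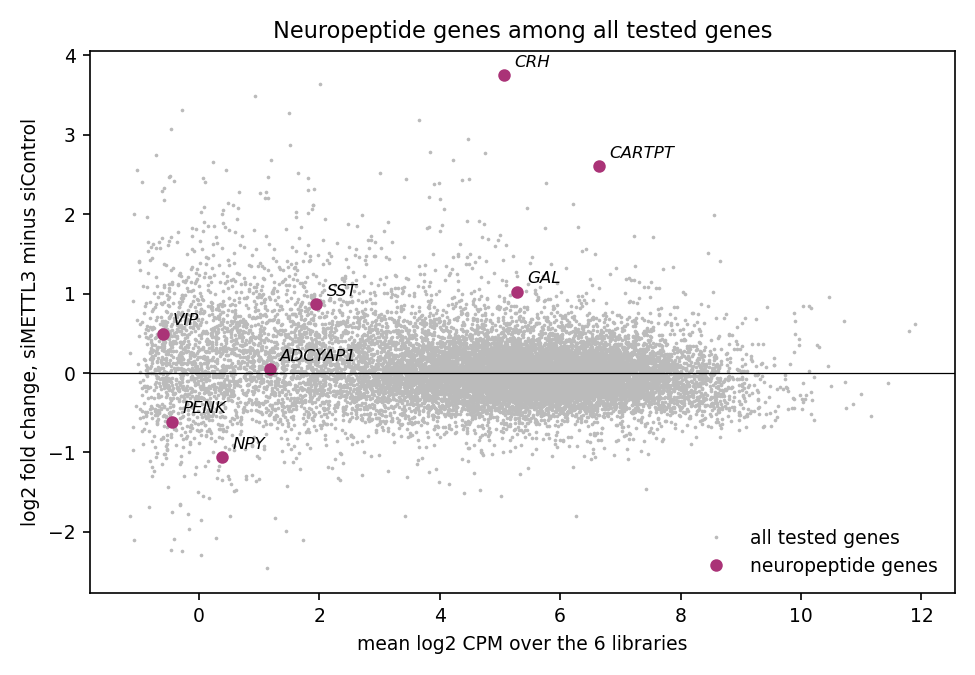
Log2 fold change of siMETTL3 minus siControl against mean log2 CPM for all 15311 tested genes (grey), with the 8 tested neuropeptide genes named. CRH has the highest log2 fold change of the plot (3.75), CARTPT stands at 2.61, and NPY lies at -1.06.

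Summed over the 10 genes, expression was 62.5, 74.4 and 60.1 CPM in siControl and 296, 305 and 281 CPM in siMETTL3. CRH and CARTPT made up 48.6%, 56.3% and 42.1% of that sum in siControl replicates 1 to 3 and 79.6%, 78.5% and 80.2% in siMETTL3 replicates 1 to 3. With GAL added, the share was 87.7% to 88.6% in siControl and 96.6% to 97.2% in siMETTL3. Most counts of these 10 genes, which are not adjusted for length here, therefore came from 3 of them in both groups. Other peptide genes are not part of this sum. CARTPT contributed the largest part of the sum in every siMETTL3 library.

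**Figure D3:**
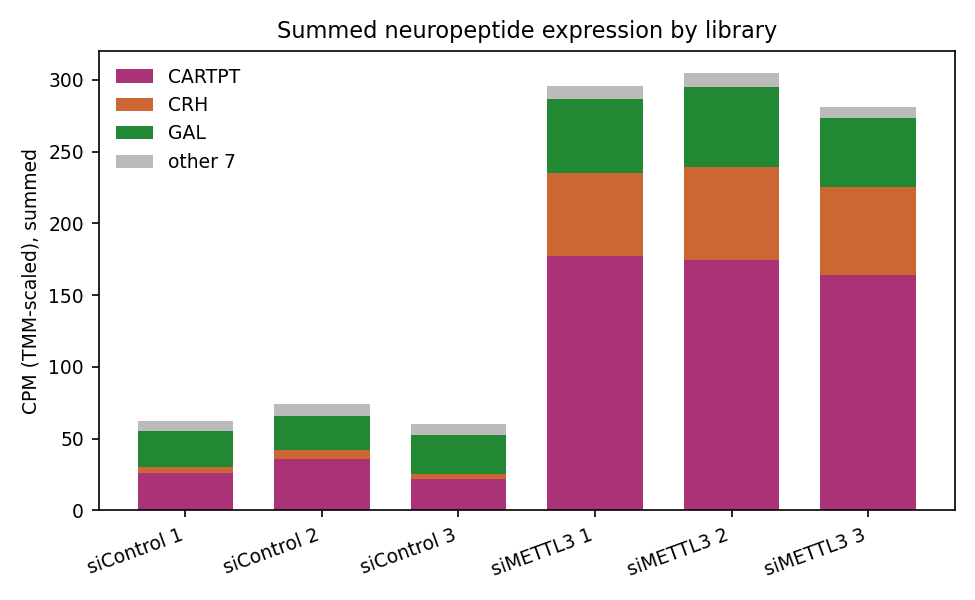
Summed CPM of the 10 neuropeptide genes in each library, stacked by CARTPT, CRH, GAL and the other 7. The siControl bars reach 60.1 to 74.4 CPM and the siMETTL3 bars 281 to 305 CPM, with CRH a thin layer in siControl and a broad one in siMETTL3.

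Levels of different genes were compared per kilobase (kb). Per kb of the counted gene span, the siControl order was CARTPT (15.8 ± 4.12 CPM per kb, SD, n = 3), GAL (3.44 ± 0.254), CRH (2.16 ± 0.582), SST (1.79 ± 0.123), ADCYAP1 (0.287 ± 0.0861), NPY (0.216 ± 0.0283), PENK (0.0776 ± 0.0382) and VIP (0.0516 ± 0.0157). The libraries of CRH and SST overlapped in that order, as did those of ADCYAP1 and NPY and those of PENK and VIP. In siMETTL3, CARTPT was at 97.0 ± 3.98 CPM per kb and CRH at 29.4 ± 1.64, ahead of GAL at 6.97 ± 0.493 and SST at 3.24 ± 0.400. ADCYAP1 (0.301 ± 0.0287), NPY (0.103 ± 0.0359), VIP (0.0721 ± 0.0295) and PENK (0.0503 ± 0.0285) followed, with overlapping libraries of NPY and VIP and of VIP and PENK. CRH thus moved from the third place to the second. Poly(A) RNA is mostly spliced, so the same counts were also divided by the length of the canonical transcript. On that scale GAL (33.9 ± 2.51) stood beside CARTPT (35.0 ± 9.14) in siControl, SST (4.37 ± 0.300) had a higher mean than CRH (3.50 ± 0.945), and in siMETTL3 GAL (68.9 ± 4.87) stayed above CRH (47.6 ± 2.66). The place of CRH among the peptides thus depends on which length is used, while CARTPT had the highest mean on both scales in both groups.

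**Figure D4:**
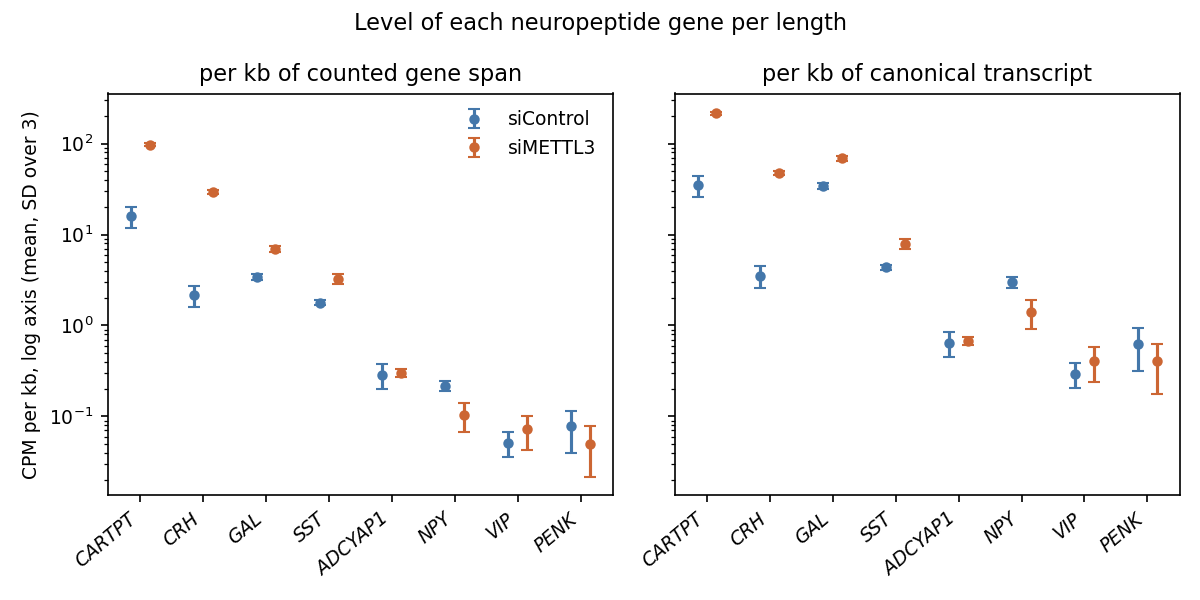
Mean CPM per kb with SD over 3 libraries (log axis) for 8 neuropeptide genes, divided by the counted gene span (left) or by the canonical transcript (right). CARTPT has the highest mean in all 4 series, but on the right its siControl libraries overlap those of GAL. CRH in siMETTL3 is above GAL on the left (29.4 against 6.97) and below it on the right (47.6 against 68.9).

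The members' gene structure was compared with that of all tested genes. Apart from CRHBP, each gene spans at most 9998 bases, as do 18.0% of tested genes. None of the 10 overlaps another gene of the count tables. GGACT is one of the sequences at which METTL3 methylates mRNA. It has 0 matches in the canonical transcripts of CRH, CARTPT, GAL and SST, 1 in NPY, VIP, PENK and CRHBP, 2 in TAC1 and 3 in ADCYAP1. These transcripts are short. Of the 1446 tested genes whose transcript is no longer than that of CRH (1288 bases), 36.3% have 0 matches, against 8.75% of all tested genes. Of such short genes, 38.6% of those called higher and 37.9% of those called lower have 0 matches. The shorter string GGAC was present 5 times in GAL, 3 times in CARTPT, 1 time in SST and 0 times in CRH. In the other members it was present 4 times in NPY, 5 times in PENK, 2 times in VIP, 13 times in ADCYAP1, 5 times in CRHBP and 4 times in TAC1. These counts are not adjusted for transcript length, and a link of either string to the changes was not tested.

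The promoters of 7 of the 10 genes were found in the RefSeq table (GRCh38.p14), which gave no window for CRH, GAL and PENK. The cAMP response element TGACGTCA, which reads the same on both strands, was searched in the 250 bases before each start. It is present in CARTPT and SST, both of which rose, and in 1.65% of all 35116 promoter windows of that length. In CARTPT it begins 143 bases before the start, and in SST 47 bases. The VIP window holds the first 7 letters, TGACGTC, 79 bases before the start. These 7 letters, which also lie within the full element, are found in 3.12% of windows on either strand. NPY has no match to the 5-letter core TGACG, which 21.2% of windows hold on either strand. ADCYAP1, which did not pass, has 2 windows, neither with the full element or its 7 letters, and 1 of them holds the core. The windows of CRHBP and TAC1, which were not tested, hold the core only. A match is a string of letters and does not show that a factor binds there. A part of the element in the changes was not tested. Shown, with the element or its first 7 letters in capitals, are the 3 windows that hold either and the NPY window, without the core. They are chr5:71719025-71719274 (plus strand), chr3:187670395-187670644 (minus strand), chr6:152750547-152750796 (plus strand) and chr7:24283940-24284189 (plus strand), each 5′ to 3′.
CARTPT: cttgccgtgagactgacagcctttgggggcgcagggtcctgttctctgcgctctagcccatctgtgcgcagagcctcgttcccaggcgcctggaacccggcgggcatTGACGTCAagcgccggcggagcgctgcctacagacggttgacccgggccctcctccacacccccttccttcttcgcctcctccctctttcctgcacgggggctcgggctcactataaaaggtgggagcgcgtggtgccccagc
SST: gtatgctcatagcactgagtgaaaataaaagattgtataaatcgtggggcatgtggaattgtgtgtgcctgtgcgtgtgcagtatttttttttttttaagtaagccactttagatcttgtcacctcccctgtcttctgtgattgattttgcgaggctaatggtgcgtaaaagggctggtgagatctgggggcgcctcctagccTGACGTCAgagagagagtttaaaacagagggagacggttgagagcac
VIP: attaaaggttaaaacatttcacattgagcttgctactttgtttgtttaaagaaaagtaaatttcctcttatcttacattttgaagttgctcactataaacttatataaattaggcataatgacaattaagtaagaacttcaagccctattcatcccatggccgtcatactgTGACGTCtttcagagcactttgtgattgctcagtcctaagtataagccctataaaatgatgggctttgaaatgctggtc
NPY: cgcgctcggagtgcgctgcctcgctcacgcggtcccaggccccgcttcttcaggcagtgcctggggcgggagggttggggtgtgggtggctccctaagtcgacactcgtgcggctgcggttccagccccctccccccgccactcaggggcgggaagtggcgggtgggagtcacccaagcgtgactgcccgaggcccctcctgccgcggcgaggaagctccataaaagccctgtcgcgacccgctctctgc

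Receptors of these peptides were examined next, from a list of 23 genes of which 22 were in the tables and 13 were tested. In edgeR 4 of the 13 rose and 0 fell, a share of 30.8% against 37.8% of all tested genes. At an unadjusted p under 0.05 the counts were 7 higher and 0 lower, in DESeq2 5 and 0, and in limma-voom 4 and 0. The median log2 fold change was 0.38. CRHR2, the receptor for urocortins and, with lower affinity, CRH, rose from 7.33, 6.66 and 6.24 CPM to 13.7, 13.96 and 13.3 CPM (log2 fold change 1.01, SE 0.12, edgeR FDR 2.42e-05). The groups were far apart, and 4.45% of the CRHR2 span overlaps INMT. CRHR1, the main CRH receptor, had 13, 7 and 2 counts in siControl and 24, 15 and 12 in siMETTL3. It did not pass (log2 fold change 1.07, edgeR FDR 0.120). Its span lies wholly inside the readthrough gene LINC02210-CRHR1, so its count is uncertain. Without siControl replicate 1 it passed, at an FDR of 0.0428, the lowest of all alternatives (the highest was 0.406).

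Both tested somatostatin receptors rose beside SST. SSTR2, the main target of somatostatin analogues, went from 3.89, 3.85 and 4.51 CPM to 7.39, 7.21 and 6.38 CPM (log2 fold change 0.78, SE 0.16, edgeR FDR 0.00148). SSTR3 went from 0.464, 0.801 and 0.664 CPM to 1.99, 4.13 and 3.17 CPM (log2 fold change 2.27, SE 0.35, edgeR FDR 0.000233). The SSTR3 values rest on as few as 10 counts in siControl and were spread in siMETTL3, where replicate 2 was highest. ADCYAP1R1, the PACAP receptor, rose from 118 ± 11.7 to 154 ± 7.71 CPM (SD, n = 3), with a log2 fold change of 0.38 and an edgeR FDR of 0.000920. OPRD1, the delta opioid receptor for enkephalin, was at 75.6 ± 12.5 and 90.2 ± 3.80 CPM and did not pass (edgeR FDR 0.0683), but did in DESeq2 (adjusted p = 0.0398), with upper-quartile scaling (edgeR FDR 0.0466) and with a replicate block (edgeR FDR 0.0133). TACR1, the substance P receptor, was at 20.4 ± 3.05 and 23.9 ± 0.904 CPM and did not pass either (edgeR FDR 0.0971).

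Of 52 other neuropeptide and peptide hormone genes, 23 were tested. In edgeR 3 of them rose and 2 fell, a share of 21.7% against 37.8% of all tested genes. Their median log2 fold change was 0.13. TAC4, a tachykinin precursor (endokinins and hemokinin), went from 8.48, 6.96 and 5.24 CPM to 27.5, 25.5 and 23.1 CPM (log2 fold change 1.86, SE 0.14, edgeR FDR 6.27e-07). EDN3, the endothelin of neural crest development, went from 3.29, 4.90 and 2.39 CPM to 10.9, 10.9 and 11.9 CPM (log2 fold change 1.65, edgeR FDR 2.72e-05). GHRL, the ghrelin precursor, went from 3.39 ± 0.736 to 7.28 ± 0.289 CPM (SD, n = 3), with a log2 fold change of 1.08 and an edgeR FDR of 0.000325. The antisense gene GHRLOS is annotated over GHRL, and an antisense RNA over TAC4, so those counts may hold reads of both strands.

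TAC3, the neurokinin B precursor, fell by 0.91 on the log2 scale (edgeR FDR 0.0289), and ADM2, which encodes intermedin, fell by 0.93 (edgeR FDR 0.0321). Both were low, at 2.29 ± 0.481 and 1.68 ± 0.351 CPM in siControl and 1.23 ± 0.381 and 0.876 ± 0.0483 CPM in siMETTL3. TAC3 no longer passed when siControl replicate 2, siMETTL3 replicate 1 or siMETTL3 replicate 2 was left out (edgeR FDR 0.124, 0.0920 and 0.117), and the alternatives spanned 0.00752 to 0.124. The ADM2 call was lost in 5 of the 6 fits that each left out a library, all but the one without siControl replicate 2 (edgeR FDR 0.0731 to 0.0916), and in DESeq2 (adjusted p = 0.0527), with a range of 0.0196 to 0.0916 over all alternatives. Without siMETTL3 replicate 1 or siMETTL3 replicate 2, 3 of these peptide genes were called in place of 5. The tachykinin family thus held a gene with 0 counts (TAC1), a gene that fell (TAC3) and a gene that rose (TAC4). The CRH paralogs UCN, UCN2 and UCN3 were too low to test.

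**Figure D5:**
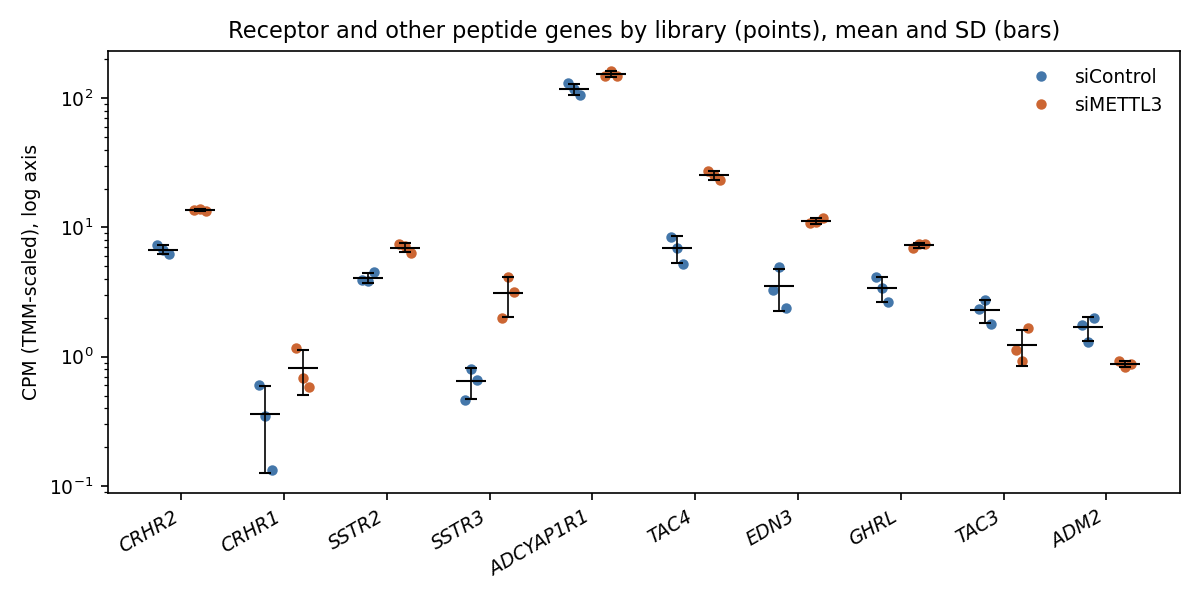
Expression in CPM (log axis) of 5 receptor genes and 5 other peptide genes, with 1 point per library and bars for the mean and SD over 3 libraries. CRHR2, SSTR2, SSTR3, ADCYAP1R1, TAC4, EDN3 and GHRL are higher in all 3 siMETTL3 libraries, TAC3 and ADM2 are lower, and CRHR1 overlaps.

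Regulators known to act on neuropeptide genes were mixed. Of 18 listed genes 16 were tested, and in edgeR 5 rose and 1 fell, a share of 37.5% against 37.8% of all tested genes. At an unadjusted p under 0.05 the counts were 6 higher and 2 lower, and in both DESeq2 and limma-voom 6 and 1. Their median log2 fold change was 0.037. NR4A3, an orphan nuclear receptor induced by cAMP, rose from 8.15 ± 0.242 to 18.2 ± 1.15 CPM (SD, n = 3), with a log2 fold change of 1.16 and an edgeR FDR of 3.49e-06. NR4A1, its close relative that acts on the CRH and POMC genes, was at 24.7 ± 3.51 CPM in siControl and rose by 0.54 on the log2 scale to 36.04 ± 4.19 CPM (edgeR FDR 0.00217). REST, the repressor of neuronal genes outside neurons, was at 23.9 ± 0.392 CPM in siControl and fell by 0.45 on the log2 scale to 17.6 ± 0.447 CPM (edgeR FDR 0.00113), and 5.66% of its span overlaps NOA1. Its cofactor RCOR1 rose (log2 fold change 0.36, edgeR FDR 0.00551), as did FKBP5, a glucocorticoid-induced chaperone (0.24, edgeR FDR 0.00483), and the CREB coactivator CRTC3 (0.27, edgeR FDR 0.00858). CREB1 was at 112 ± 4.33 and 120 ± 1.45 CPM and did not pass (edgeR FDR 0.193). NR3C1, the glucocorticoid receptor through which cortisol represses CRH, was at 35.7 ± 4.14 and 29.96 ± 2.28 CPM and did not pass (edgeR FDR 0.0538), but did with no filter (edgeR FDR 0.0412) and with a replicate block (edgeR FDR 0.0199). CRTC1, another CREB coactivator, was at 93.7, 69.4 and 49.5 CPM in siControl and 114, 117 and 112 CPM in siMETTL3. Its groups did not overlap, and it did not pass (log2 fold change 0.68, edgeR FDR 0.0646). It passed in DESeq2 (adjusted p = 0.0245), in limma-voom (adjusted p = 0.00259), without robust dispersions (edgeR FDR 0.00445) and with a replicate block (edgeR FDR 0.0357).

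Of the 3 tested enzymes that process the precursors, 0 rose and 1 fell in edgeR, against 18.6% and 19.2% of all tested genes. The counts were also 0 and 1 at an unadjusted p under 0.05, in DESeq2 and in limma-voom. CPE, the carboxypeptidase that trims cut peptides, was at 92.5 ± 7.12 CPM in siControl and fell by 0.81 on the log2 scale to 52.8 ± 1.98 CPM (edgeR FDR 1.59e-06), while PAM, the amidating enzyme (log2 fold change 0.040, edgeR FDR 0.666), and the convertase PCSK2 (0.58, edgeR FDR 0.162) did not pass and PCSK1 was too low to test.

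The genes whose log2 CPM across the 6 libraries followed CRH most closely were SLC18A2 (Pearson r 0.9998), OLFM1 (0.9994), SERPINB9 (0.9991), TKTL1 (0.9991) and NEDD9 (0.9988), among 11763 genes with a mean log2 CPM of at least 3. SLC18A2 is the vesicular monoamine transporter, OLFM1 a secreted neuronal glycoprotein, SERPINB9 a granzyme B inhibitor, TKTL1 a transketolase-like protein and NEDD9 a focal adhesion scaffold. The libraries fall into their 2 groups, so r mainly reads how cleanly a gene separates them, and it is a description without a test. The size of the change differed, from a log2 fold change of 1.08 in SLC18A2 to 2.79 in TKTL1. Among the neuropeptide genes, r with CRH was 0.998 for CARTPT, 0.970 for GAL, 0.949 for SST, 0.393 for VIP, 0.290 for ADCYAP1, -0.403 for PENK and -0.854 for NPY.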

How the data were processed

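RNA-seq of poly(A) RNA from 6 libraries was used. The deposited tables hold raw counts, made by the authors with featureCounts 1.5.3 on whole gene spans of a GENCODE release 33 annotation, introns included, without strand and with reads over several genes counted for each, per the file headers. No option to count pairs as fragments was set, and 73.7% to 80.6% of counts from 1 to 20 were even, so both reads of a pair were probably counted. Trimmomatic 0.36 and HISAT2 2.1.0 are named, with GRCh38, in the submitters' processing notes. The deposited tables also give each span's length in bases (another unit, per the file headers).

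Groups came from the sample titles. Genes were filtered with filterByExpr (15311 kept), scaled by TMM and tested with edgeR 4.0.16 in R 4.3.3 (glmQLFit and glmQLFTest, robust, no covariate), FDR threshold 0.05. The SE is the log2 fold change over the square root of F, and 95% intervals use its t quantile. CPM values are relative to TMM-scaled library sizes. The fit was tested on simulated data in which 200 genes changed, far fewer than were called here. That simulation therefore does not measure errors under so broad a change. Libraries of a group differed beyond sampling noise (chi-square per degree of freedom 3.12 to 17.0). Counting both reads of a pair would by itself raise this value, so the excess over sampling noise is smaller than it looks. Alternatives were other scalings, filters, DESeq2 1.42.0, limma-voom (limma 3.58.1), non-robust dispersions, the replicate block, each library left out and, added after seeing the data, halved counts.

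The genes and lists were chosen with earlier results of these data known. Named were all 10 members, METTL3, CRHR1, CRHR2, up to 5 called genes with the smallest FDR of each list, 4 processing enzymes and the 5 genes most correlated with CRH; genes that did not pass and are named beside these (OPRD1, TACR1, CREB1, NR3C1, CRTC1), and CRTC3, were chosen after their values were seen. One gene of the sympathetic marker list, and the list's count and sum, are not reported here; DBH and TH, chosen after their values were seen, are given in its place. Transcripts are canonical ones of GENCODE release 44, whose GRCh38 genes overlap the counted spans of the members.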

Additional observations from a re-analysis of the deposited data

How the results depend on the processing

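With all 6 libraries, the 31 genes followed kept direction and side of the threshold in 303 of 304 values. The exception was ADM2 in DESeq2. OPRD1, CRTC1 and NR3C1 were not among the 31, and their calls changed in some of these fits, as given above. In the fits that each left out 1 library, 170 of 186 values kept direction and side of the threshold, 11 lost the call, 1 gained it and 4 changed sign. The sign changes were those of ADCYAP1, whose log2 fold change went from -0.094 to 0.32 over these fits, and of PAM (-0.0012 to 0.10), neither past the threshold in any. CRH went from 3.64 to 3.99. The number of called genes among the 7 members other than CRH went from 3 to 4, of other neuropeptide genes from 3 to 5, of receptors from 4 to 7 (7 without siControl replicate 1) and of regulators from 5 to 8. The causes were not tested. Over all genes, 2091 to 3178 were higher and 2119 to 3216 lower.

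Correlations of deviations between the groups were weak, at 0.0401, 0.0494 and 0.0671 for equal replicate numbers and -0.0642 to 0.0263 for others. Equal numbers were thus slightly more alike, and whether the numbers pair the libraries was not tested. With a replicate block, 6166 genes were called in place of 5786, and no member or other neuropeptide gene changed its call, while receptors went from 4 to 5 (OPRD1) and regulators from 6 to 8 (CRTC1, NR3C1). Scaling by total counts moved the median of all genes to 0.021 and the share of calls that were higher from 49.2% to 53.9%. Halved counts called 5819 genes. Depth limits VIP, PENK, NPY and CRHBP, with at most 38 counts in any library.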
